A study of Mus musculus with 16 samples.

Results

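Collagen chains were examined by structural class in epidermal cells of mice fed 2 diets. The chains were the genes of the count table whose mouse symbol has the form Col, a type number, a and a chain number, and which held at least 10 counts over the 16 libraries. Of 44 such symbols 43 met the rule, among 22155 genes tested and 50600 gene identifiers in all, and Col10a1 did not, with 0 counts. They comprised 11 fibrillar chains (types 1, 2, 3, 5, 11, 24 and 27), 6 basement membrane chains (type 4), 6 type 6 chains, 9 fibril-associated chains (types 9, 12, 14, 16, 19, 20 and 22), 4 transmembrane chains (types 13, 17, 23 and 25) and 7 others (types 7, 8, 15, 18, 26 and 28). Library totals ran from 22500821 to 51844375 counts, so that 3 counts corresponded to 0.0569 to 0.130 CPM (counts scaled by library size to a common total). Reads were found in every library for 30 of the 43 chains, and 26 had a mean of at least 1 CPM.

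All mice were female C57/B6J animals that received a purified AIN-93M diet from 5 wk of age, and the labels name no engineered allele. The food of the I3C groups contained 200 ppm indole-3-carbinol, a plant compound whose products activate the aryl hydrocarbon receptor (AhR), and that of the AhR-poor groups, labelled SYNTH, contained none. After 3 wk the footpad was injected with 50 μl of PBS (vehicle) or with PBS holding 50 μg papain, a cysteine protease used as an allergen. Footpad epidermis was split from dermis with dispase 6 hr later and dissociated, and RNA was sequenced in 4 libraries for each of the 4 groups, with the single animal as the study's unit. Animals on the same diet shared a cage, so an effect of diet and an effect of cage cannot be told apart. Basal keratinocyte markers summed to 25467 to 31521 CPM in the I3C vehicle libraries, 20319.7 to 22224 CPM in I3C papain, 19534 to 26337 CPM in AhR-poor vehicle and 18236 to 22637 CPM in AhR-poor papain libraries, so that they were high throughout.

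Collagens are trimers of chains built on a repeat of glycine and a pair of other residues (Gly-X-Y), since only glycine is small enough for the centre of the triple helix. Fibrillar chains form the banded fibres of dermis, tendon and bone and are classic products of fibroblasts. Type 4 chains form the sheet of basement membranes, type 6 forms beaded filaments next to them, and the fibril-associated chains coat or bridge fibres. Transmembrane collagens sit in the cell surface. In skin, basal keratinocytes are known to make collagen 17 of the hemidesmosome, which anchors the cell, and collagen 7 of the anchoring fibrils beneath it, together with the α5 and α6 chains of type 4.

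The length of the unbroken repeat separated the fibrillar class from the rest. Their longest unbroken Gly-X-Y run spanned 216 to 344 triplets with a median of 338, against 39 to 66 in type 4, 37 to 87 in type 6, a median of 57.0 in the fibril-associated chains and 40 to 55 in the transmembrane chains. Type 4 chains were instead broken into 23 to 27 runs of at least 3 triplets. Exons of 54 bases, the length of 6 triplets, made up 42.9% to 56.9% of internal coding exons in the fibrillar genes and 2.22% to 5.88% in type 4, but up to 46.7% in the fibril-associated genes, among which Col9a2, Col9a3 and Col22a1 fell within the fibrillar range. Single coding exons of the longest coding transcript (GENCODE M21, GRCm38) illustrate the repeat, given 5′ to 3′ on the strand of the gene with every glycine codon in capitals. The first 4 are the first exon of 54 bases made of 6 whole triplets in chains that responded to diet or papain. The fifth is an interrupted stretch of a type 4 chain, and the last is the first 54-base exon of Col17a1, which begins and ends inside a glycine codon. They were chosen for an intact or interrupted repeat, and Col6a1 of type 6 is among the intact ones, so they do not show the difference between classes.
Col1a2, coding exon 8, chr6:4515481-4515534, plus strand: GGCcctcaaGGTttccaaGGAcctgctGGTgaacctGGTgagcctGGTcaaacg
Col3a1, coding exon 6, chr1:45325360-45325413, plus strand: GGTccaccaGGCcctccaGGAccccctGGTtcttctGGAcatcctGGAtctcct
Col5a2, coding exon 6, chr1:45434892-45434945, minus strand: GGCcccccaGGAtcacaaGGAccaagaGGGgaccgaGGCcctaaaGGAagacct
Col6a1, coding exon 9, chr10:76719623-76719676, minus strand: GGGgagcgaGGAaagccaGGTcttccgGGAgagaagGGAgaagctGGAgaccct
Col4a5, coding exon 9, chrX:141578672-141578752, plus strand: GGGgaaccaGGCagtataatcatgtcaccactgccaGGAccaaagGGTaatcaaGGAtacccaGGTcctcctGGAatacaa
Col17a1, coding exon 25, chr19:47663803-47663856, minus strand: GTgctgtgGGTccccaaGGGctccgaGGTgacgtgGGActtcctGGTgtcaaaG

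**Figure D1:**
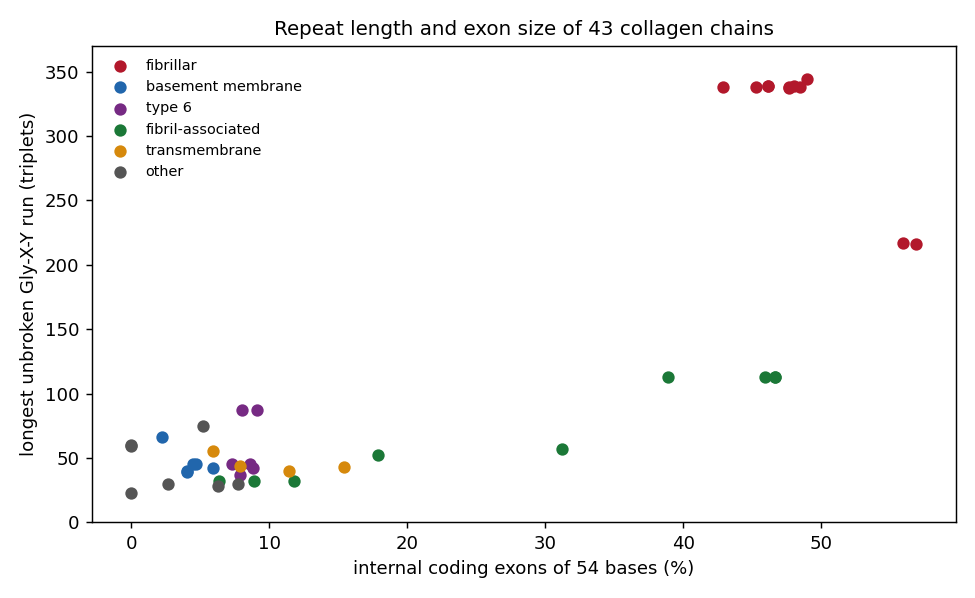
The share of internal coding exons that are 54 bases long (x axis, percent) is plotted against the longest unbroken Gly-X-Y run (y axis, triplets) for each of the 43 chains, coloured by class. The 11 fibrillar chains lie above 200 triplets and all others below, with no overlap.

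Of the 43 chains, 34 were matched by symbol to a promoter window of RefSeq (GRCm38.p6), of which the 250 bases before the start were searched on both strands for 5 short motifs. Collagen genes entered with 1 window each, whereas the 32851 windows of all genes were not reduced to 1 per gene. The shares below are thus not built alike, and their difference was not tested. GCGTG, the core of the AhR response element, was present in 8 of the 34 collagen windows and 28.2% of all 32851. GGGCGG, a GC box, was present in 21 of the 34 collagen windows and 32.7% of all 32851, and CCAAT in 12 of the 34 collagen windows and 33.8% of all 32851. TATAAA was found in 4 of the 34 collagen windows and 12.4% of all 32851, and the AP-1 motif TGANTCA in 1 of the 34 collagen windows and 6.75% of all 32851. Col4a1 and Col4a2 lie head to head on chr8, so matches in their windows may not be independent. Windows are given for a pair of fibrillar chains that were higher on the AhR-poor diet and for the head-to-head pair Col4a5 and Col4a6 that fell after papain, 5′ to 3′ on the strand of the gene and with all motif matches in capitals. None of the 4 windows held GCGTG, which says only that these letters do not occur in this stretch, and no matches overlapped.
Col1a2, chr6:4505368-4505617, plus strand: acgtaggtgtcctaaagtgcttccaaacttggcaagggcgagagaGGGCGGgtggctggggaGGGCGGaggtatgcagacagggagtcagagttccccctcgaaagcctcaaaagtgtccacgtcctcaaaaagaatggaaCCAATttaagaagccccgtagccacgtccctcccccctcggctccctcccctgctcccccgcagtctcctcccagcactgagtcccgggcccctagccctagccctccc
Col3a1, chr1:45311288-45311537, plus strand: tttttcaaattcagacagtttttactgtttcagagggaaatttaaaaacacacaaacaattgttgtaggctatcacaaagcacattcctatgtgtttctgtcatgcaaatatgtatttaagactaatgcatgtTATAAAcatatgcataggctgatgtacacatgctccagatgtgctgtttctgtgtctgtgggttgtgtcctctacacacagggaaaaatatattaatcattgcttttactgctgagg
Col4a5, chrX:141475169-141475418, plus strand: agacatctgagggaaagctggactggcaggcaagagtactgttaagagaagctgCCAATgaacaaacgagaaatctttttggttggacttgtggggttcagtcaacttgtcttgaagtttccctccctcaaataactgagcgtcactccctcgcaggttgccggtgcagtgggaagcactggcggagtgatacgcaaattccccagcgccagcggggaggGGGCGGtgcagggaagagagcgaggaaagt
Col4a6, chrX:141474077-141474326, minus strand: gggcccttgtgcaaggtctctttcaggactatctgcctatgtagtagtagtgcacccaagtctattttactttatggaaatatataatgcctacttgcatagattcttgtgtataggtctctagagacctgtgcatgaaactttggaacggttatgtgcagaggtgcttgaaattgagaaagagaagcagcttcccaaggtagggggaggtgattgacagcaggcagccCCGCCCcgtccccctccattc

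Levels of different genes were compared per kilobase (kb) of the longest coding transcript. On this scale the collagen RNA of the epidermal cells was mostly transmembrane. Col17a1 alone held 76.9% to 82.1% of the summed collagen level in the I3C vehicle libraries and 70.3% to 77.0% in the AhR-poor papain libraries. Over all 16 libraries the order of the mean levels below it was Col7a1, Col18a1, Col16a1, Col6a1, Col4a5, Col4a6, Col12a1, Col3a1 and Col23a1, from 56.7 CPM per kb for Col7a1 to 6.11 for Col23a1. The place of Col3a1 depended on the group, since it was at 0.123 ± 0.0380 and 0.185 ± 0.164 CPM per kb on the I3C diet and 5.53 ± 1.67 and 18.7 ± 6.72 on the AhR-poor diet, without and with papain (SD, n = 4, as in all group values). Col23a1 was at 5.48 ± 1.60, 6.76 ± 0.800, 4.81 ± 0.414 and 7.41 ± 1.2 in the same groups. The fibrillar class summed to 4.58 ± 0.719 CPM per kb in the I3C vehicle group, 2.34 ± 0.979 with papain, 20.1 ± 4.87 in the AhR-poor vehicle group and 58.2 ± 20.6 with papain. Its share of the collagen level was thus 0.474% ± 0.165 and 0.268% ± 0.146 on the I3C diet, and 2.33% ± 0.720 and 7.62% ± 2.77 on the AhR-poor diet. The fibrillar sums of the 2 diets did not overlap with either injection. Type 6 summed to 18.6 ± 2.34, 4.53 ± 1.01, 18.6 ± 1.89 and 16.7 ± 3.93 CPM per kb in the same order, so that only the I3C papain libraries stood below the others. The basement membrane class gave 28 ± 8.20, 12.6 ± 1.57, 29.6 ± 3.36 and 20.4 ± 3.05, and the fibril-associated class 27.2 ± 6.55, 23.7 ± 2.0, 26.5 ± 3.31 and 24.1 ± 2.17. Each fibril-associated group overlapped all the others.

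**Figure D2:**
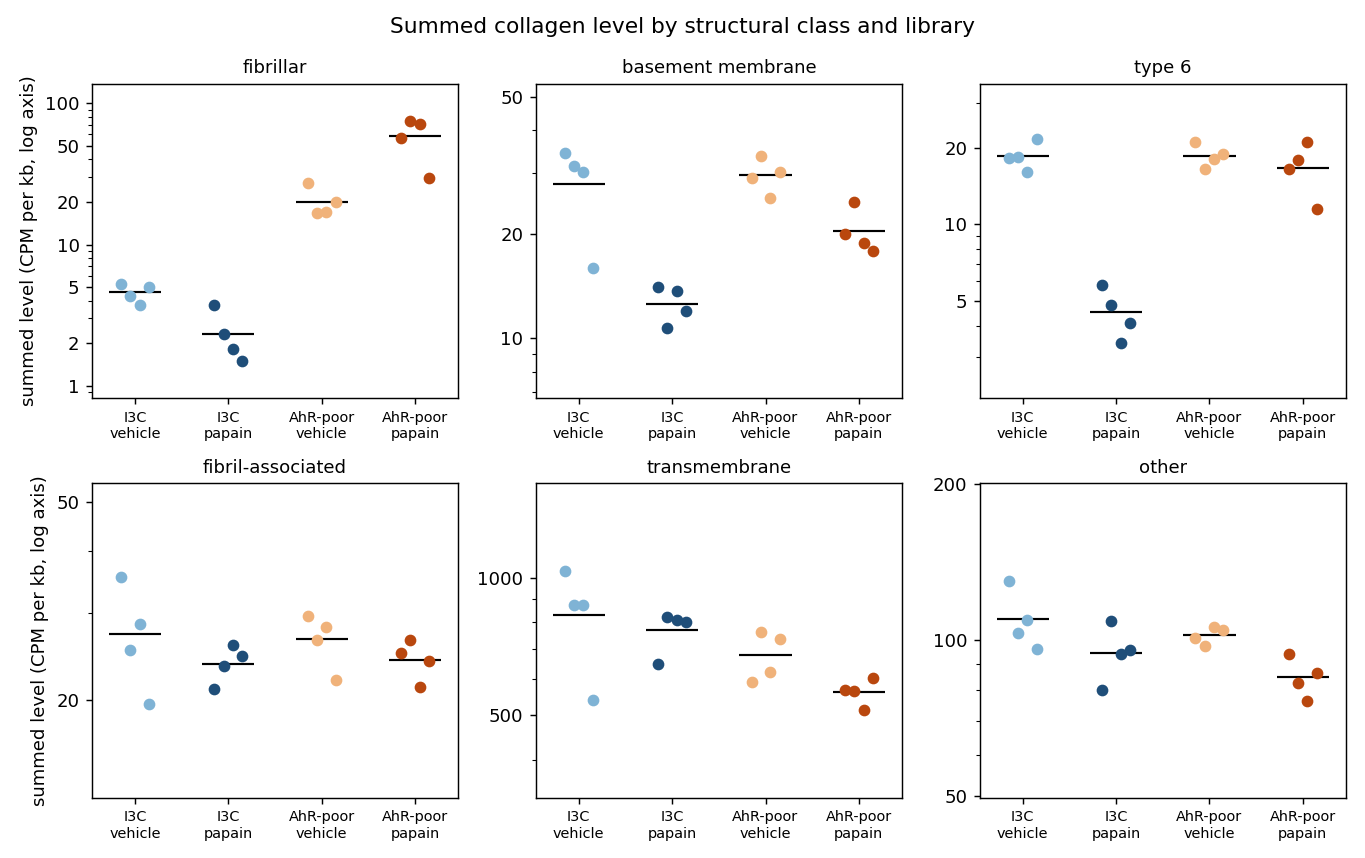
Each point is the summed level of a structural class in 1 library (y axis, CPM per kb of transcript, log axis with its own scale in each panel), and bars are means of the 4 libraries of a group. Fibrillar sums run from 1.5 to 5.30 on the I3C diet and from 16.6 to 75.3 on the AhR-poor diet, and the fibril-associated sums overlap in all groups.

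The chains called between diets included those of type I and III collagen, Col4a1 and Col4a2 of type 4 and some of types 5 and 6, all higher on the AhR-poor diet, while Col17a1, Col7a1, Col4a5 and Col4a6 were not called. With vehicle, 11 of 43 chains were higher on the AhR-poor diet than on the I3C diet, against a background of 1.59% of the genes tested, and with papain 14 of 43 were, against 7.15%. Here and below, a call needed log2 fold changes beyond 1 and adjusted p-values under 0.01 in edgeR. All 11 chains called with vehicle were among the 14 called with papain. These comparisons share no library, but both come from the same fit of all 16 libraries, and diet and cage are joined in both. No chain was called lower on the AhR-poor diet with either injection by edgeR or DESeq2, where the background was 0.0% with vehicle and 0.0993% with papain. At an unadjusted p below 0.05, 0 chains were lower with vehicle and 2 with papain. Beyond the minimum fold change 0 were lower with either injection, beside 151 genes in all with vehicle and 195 with papain. The median log2 fold change of the 43 chains was 0.67 with vehicle and 1.56 with papain, beside -0.01 and 0.01 over all genes. With chains at 3 counts or fewer in every library of a group set to the bound this floor allows, and to 0 where both groups were at it, the medians were 0.03 and 0.50.

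By class, the AhR-poor diet was higher with vehicle for 5 of 11 fibrillar chains, 2 of 6 basement membrane chains, 2 of 6 type 6 chains, 1 of 9 fibril-associated chains, 0 of 4 transmembrane chains and 1 of 7 others. With papain the counts were 7, 2, 3, 1, 0 and 1. The median log2 fold change of the fibrillar class was 2.44 with vehicle and 3.74 with papain (0.81 and 2.30 at the bounds). That of type 4 was 0.47 and 1.45 (0.47 and 0.63 at the bounds). The count with vehicle rested on single libraries, and it was 4 without I3C replicate T108, 4 without T109, 3 without T110, 6 without T111 and 6 without AhR-poor replicate T100. Col1a1, Col1a2 and Col3a1 were called in all of these. The count with papain stayed between 13 and 16 whichever library was left out.

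Markers of cells other than keratinocytes differed between diets beside these chains. Summed dermal fibroblast markers (14 tested) ran from 154 to 186 CPM in the I3C vehicle group, 193 to 214 CPM in the I3C papain group, 204 to 256 CPM in the AhR-poor vehicle group and 405 to 655 CPM in the AhR-poor papain group. Of them 8 exceeded their I3C levels on the AhR-poor diet with vehicle and 10 with papain, and none had 0 counts throughout a group. Their median log2 fold change between diets was 2.83 with vehicle and 6.21 with papain, more than the summed levels show. Endothelial markers (10 tested) summed to 0.919 to 3.19 CPM and 1.34 to 2.61 CPM on the I3C diet and to 15.8 to 46.9 CPM and 30.2 to 71.6 CPM on the AhR-poor diet, with 9 and 10 higher. Macrophage markers (8 tested) summed to 2.79 to 4.26 CPM and 3.08 to 11.2 CPM, then 15.9 to 33.0 CPM and 38.5 to 78.1 CPM, with 7 and 8 higher. Haemoglobin genes and Alas2, 5 genes of red blood cells, summed to 0.258 to 3.05 CPM and 0.400 to 17.2 CPM, then 73.2 to 155 CPM and 267 to 1254 CPM, and all 5 exceeded their I3C levels on the AhR-poor diet with either injection. Fewer markers of other cells were called higher on that diet, namely 2 with vehicle and 5 with papain of 6 for melanocytes, 1 and 3 of 5 for adipocytes, 0 and 3 of 5 for skeletal muscle, 0 and 4 of 9 for pericytes and smooth muscle, and 0 and 3 of 6 for neutrophils. The counts were 0 and 1 of 7 for Langerhans cells, 0 and 1 of 7 for Schwann cells, and 0 and 1 of 8 for suprabasal keratinocytes. Langerhans markers summed to 421 to 631 CPM and 684 to 869 CPM on the I3C diet, without and with papain. On the AhR-poor diet they summed to 755 to 884 CPM and 955 to 1070 CPM. DESeq2 called 3 of these 7 higher with either injection. None of the 6 basal keratinocyte markers was called between diets. The part of these cells in the collagen results was not tested, and in such bulk RNA more cells of a type and more RNA per cell cannot be told apart. Within groups, 13 of the 14 chains were highest in replicate T106 among the I3C papain libraries, 13 were highest in T100 among the AhR-poor vehicle libraries, and 12 were lowest in T112 among the AhR-poor papain libraries. Summed fibroblast markers were also highest in T106 and T100 and lowest in T112 within those groups. In the I3C papain group the lead of T106 in the fibroblast sum was small, at 214 CPM against 193 CPM in T113, 207 CPM in T114 and 201 CPM in T115. Endothelial, macrophage and red blood cell sums of that group were also highest in T106. They reached 2.61, 11.2 and 17.2 CPM there, beside group means of 1.75, 6.45 and 5.42 CPM. Adipocyte, skeletal muscle, melanocyte and Langerhans sums were highest in T106 too. Neutrophil and Schwann sums were highest in T114, and those of pericytes and smooth muscle and of sweat glands in T115. Among the other libraries of that group the fibroblast sum and the chains had different orders, and a relation between them was not tested. T114 was lowest for Col1a1, Col1a2 and Col3a1, and T113, with the lowest fibroblast sum, was next to T106 for these chains.

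**Figure D3:**
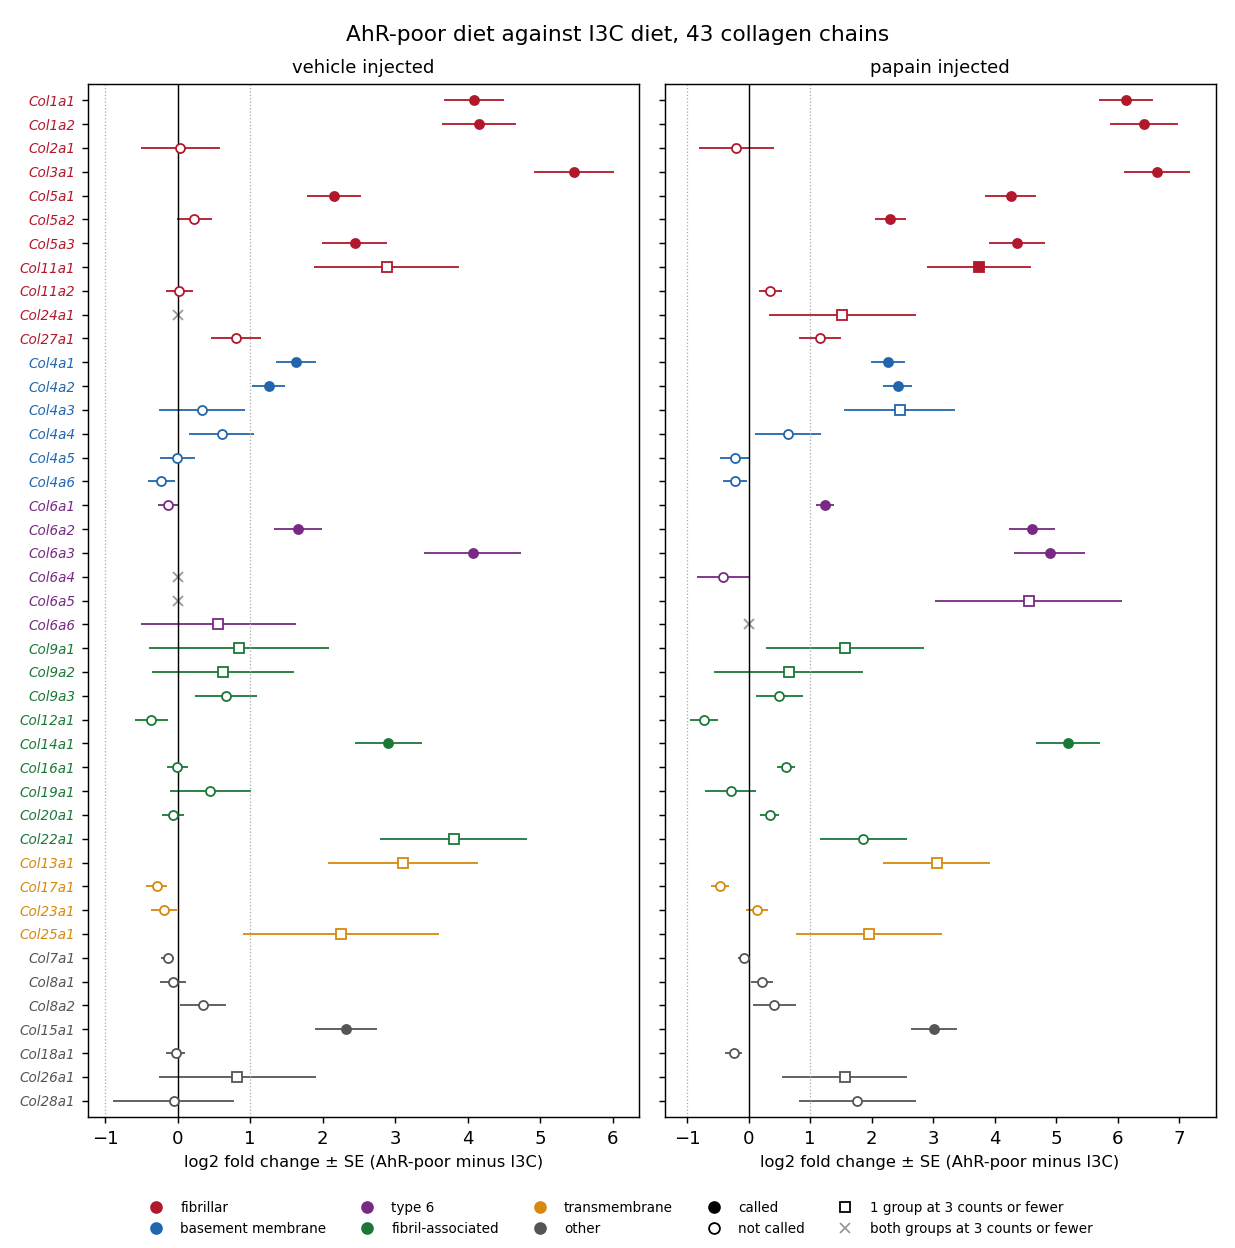
The log2 fold change of each of the 43 chains between diets (x axis, AhR-poor minus I3C, bars are SE) is shown for vehicle (left) and papain (right), with filled symbols for called chains and dotted lines at the minimum fold change. Squares are fits in which no library of 1 group exceeded 3 counts, which depend on the prior count, and crosses mark chains without a fold. Filled symbols lie only on the right, 11 with vehicle and 14 with papain.

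After papain, 5 chains changed in the same direction on both diets, and more chains rose on the AhR-poor diet while more fell on the I3C diet. On the AhR-poor diet 10 chains rose (background 6.04%) and 3 fell (background 2.42%). On the I3C diet 3 rose (background 3.69%) and 7 fell (background 5.29%). The comparisons share no library but come from the same fit of all 16 libraries. Col6a4 and Col12a1 rose on both diets, which is 2 of the 10 rises on the AhR-poor diet and 2 of the 3 on the I3C diet. Col4a5, Col4a6 and Col8a2 fell on both, which is all 3 falls on the AhR-poor diet and 3 of the 7 on the I3C diet. The median log2 fold change of the 43 chains was 0.63 on the AhR-poor diet and -0.25 on the I3C diet (0.57 and 0.00 at the bounds), beside -0.00438 and -0.0364 over all genes. Of the 14 dermal fibroblast markers, 11 also rose after papain on the AhR-poor diet, and 2 fell and 0 rose on the I3C diet in edgeR, and their part in the collagen values was not tested. The count on the AhR-poor diet was 8 without replicate T101 of the vehicle group, where Col1a2, Col3a1, Col4a1, Col5a3 and Col6a2 were lost. Dropping the minimum fold change added 5 chains on that diet and 3 on the I3C diet.

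The difference between the diets in the papain response was tested as an interaction. No chain passed in edgeR, where 4 genes in all were higher (0.0181%) and 0 lower (0.0%). At an unadjusted p below 0.05, 10 chains had a positive and 1 a negative interaction. Beyond the minimum fold change these were 9 and 1 of 43 chains, beside 1008 and 191 of all 22155 genes. DESeq2 called 4 chains (Col5a1, Col5a2, Col6a1 and Col6a2), and its share over all genes is not given here. The nearest in edgeR were Col6a1 with 1.37 ± 0.20 (SE, adjusted p = 0.0102), Col6a2 with 2.94 ± 0.49 (SE, adjusted p = 0.0214) and Col5a2 with 2.07 ± 0.35 (SE, adjusted p = 0.0267), all toward a larger diet difference after papain. Without I3C papain replicate T106 edgeR called Col5a2, Col6a1, Col6a2 and Col14a1. Without AhR-poor papain replicate T112 it called the first 3 of these, and without AhR-poor vehicle replicate T100 Col6a1 and Col6a2.

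**Figure D4:**
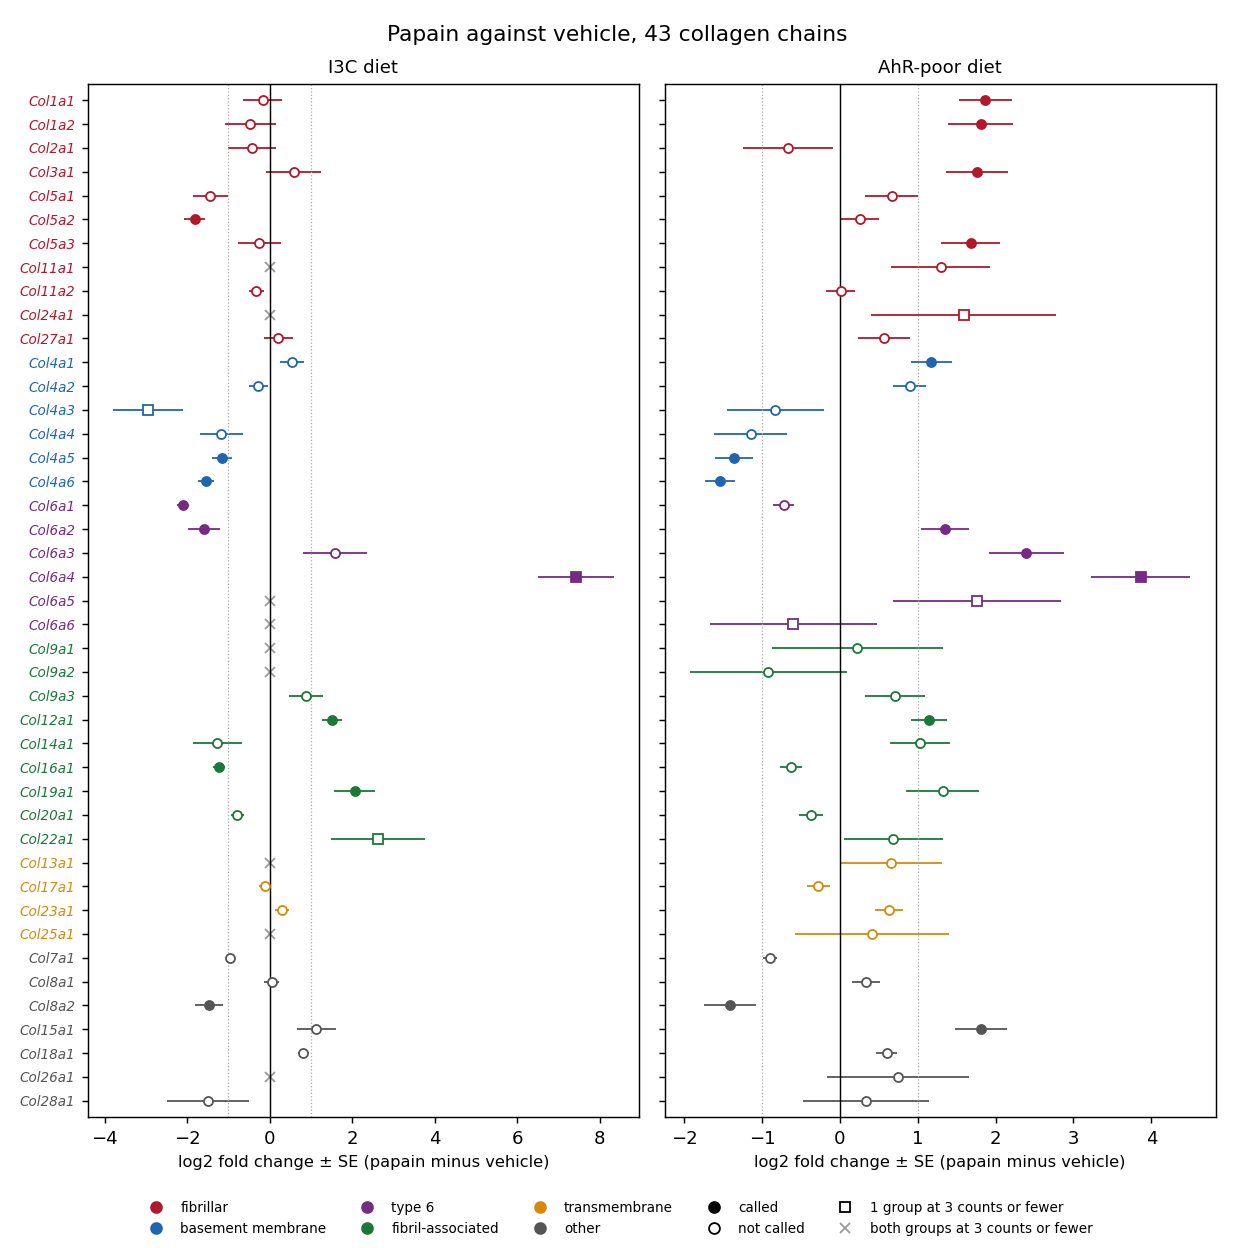
The log2 fold change of each chain after papain (x axis, papain minus vehicle, bars are SE) is shown on the I3C diet (left) and the AhR-poor diet (right), with symbols as for the diet comparison. On the I3C diet 7 filled symbols lie to the left and 3 to the right, and on the AhR-poor diet 3 lie to the left and 10 to the right. Col6a4 on the I3C diet is a fit against 0 counts.

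The fibrillar chains included the largest diet differences. Col1a1 and Col1a2 encode the chains of type I collagen, the main protein of dermal fibres. Col1a1 was at 1.46, 1.15, 1.14 and 1.98 CPM with vehicle and at 2.41, 1.35, 0.599 and 0.647 CPM with papain on the I3C diet, and at 32.7, 20.3, 21.5 and 22.9 CPM with vehicle and at 82.9, 113.1, 115.4 and 44.1 CPM with papain on the AhR-poor diet. Each library of the AhR-poor diet exceeded each of the I3C diet, and within the AhR-poor diet all papain libraries lay above all vehicle libraries. The log2 fold change between diets was 4.09 ± 0.41 (SE, adjusted p = 0.000110) with vehicle and 6.13 ± 0.44 (SE, adjusted p = 8.23e-07) with papain. Wherever groups are said not to overlap, the exact two-sided permutation test of log2(CPM + 0.1) gave p = 0.0286, the smallest that 4 against 4 libraries allow. Col1a2 was at 0.948, 1.38, 1.88 and 1.41 CPM with vehicle and at 2.53, 0.866, 0.257 and 0.298 CPM with papain on the I3C diet, and at 34.1, 20.8, 21.6 and 23.8 CPM with vehicle and at 81.4, 117, 108.7 and 44.0 CPM with papain on the AhR-poor diet. Col1a2 followed the same order, with no overlap between diets. Its log2 fold changes between diets were 4.15 ± 0.51 (SE, adjusted p = 0.000519) and 6.43 ± 0.55 (SE, adjusted p = 4.27e-06), and without T106 the latter was 7.58. The ratio of Col1a1 to Col1a2 per kb was 0.865 to 0.900 in the AhR-poor vehicle libraries and 0.873 to 0.958 with papain. On the I3C diet, where few reads were found, it ran from 0.549 to 1.39 with vehicle and from 0.858 to 2.10 with papain.

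Col3a1, the chain of type III collagen that accompanies type I in skin, had the largest fitted diet fold change of the chains with vehicle. Col3a1 was at 0.402, 0.892, 0.789 and 0.660 CPM with vehicle and at 2.14, 1.38, 0.143 and 0.448 CPM with papain on the I3C diet, and at 43.3, 24.4, 23.1 and 32.3 CPM with vehicle and at 106.5, 139, 119 and 51.5 CPM with papain on the AhR-poor diet. The groups of the 2 diets did not overlap. Its log2 fold change was 5.47 ± 0.55 (SE, adjusted p = 0.000111) with vehicle and 6.64 ± 0.54 (SE, adjusted p = 2.52e-06) with papain, and without T106 the latter was 7.36, below that of Col1a2. The ratio of Col3a1 to Col1a1 per kb was 0.510 and 0.876 on the I3C diet and 1.35 and 1.25 on the AhR-poor diet, without and with papain. On the AhR-poor diet papain raised Col1a1 by 1.87 ± 0.34 (SE, adjusted p = 0.000697), Col1a2 by 1.81 ± 0.42 (SE, adjusted p = 0.00423) and Col3a1 by 1.76 ± 0.40 (SE, adjusted p = 0.00390) on the log2 scale. The calls of Col1a2 and Col3a1 ended without any of T101, T102, T103, T104, T105 or T107. On the I3C diet the same chains differed by -0.17, -0.47 and 0.58 with adjusted p = 0.828, 0.609 and 0.555.

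Type V chains nucleate and limit the width of type I fibres. Col5a1 was at 1.87 ± 0.381 CPM on the I3C and 8.34 ± 1.95 CPM on the AhR-poor one with vehicle, a log2 fold change of 2.16 ± 0.37 (SE, adjusted p = 0.00281), and at 0.686 ± 0.469 CPM and 13.2 ± 4.81 CPM with papain, 4.26 ± 0.41 (SE, adjusted p = 4.23e-06). Col5a3 gave log2 fold changes of 2.44 ± 0.44 (SE, adjusted p = 0.00361) and 4.37 ± 0.45 (SE, adjusted p = 4.59e-06). Their vehicle calls were lost without T108, T109, T110 or T100, and that of Col5a3 also without T111. Col5a2 behaved otherwise. It was at 22.3, 16.9, 13.4 and 20.7 CPM in the I3C vehicle libraries and 26.6, 18.5, 17.9 and 22.8 CPM in the AhR-poor vehicle libraries, which overlap (log2 fold change 0.23 ± 0.24 SE, adjusted p = 0.796). With papain it was at 7.79, 4.52, 4.88 and 3.51 CPM on the I3C diet and 27.9, 29.8, 29.0 and 15.9 CPM on the AhR-poor diet. The papain groups did not overlap, at 2.30 ± 0.26 (SE, adjusted p = 1.69e-05) between diets. Col5a2 fell after papain on the I3C diet, with a log2 fold change of -1.82 ± 0.26 (SE, adjusted p = 4.28e-05), and differed by 0.26 ± 0.24 (SE, adjusted p = 0.457) on the AhR-poor diet. Col5a1 was not called after papain on the I3C diet in edgeR (log2 fold change -1.44 ± 0.42 SE, adjusted p = 0.0140) but was called lower there by DESeq2. Per kb, Col5a2 exceeded Col5a1, the ratio of Col5a1 to Col5a2 being 0.0806 in the I3C vehicle and 0.406 in the AhR-poor papain group.

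Of the other fibrillar chains Col11a1 was called and the rest were not. Col11a1, a chain best known from cartilage, had 3 counts in the 4 I3C papain libraries and 43 in the 4 AhR-poor papain libraries, a ratio of 13.8 with a 95% exact interval of 4.42 to 69.5 that covers counting error only. All 3 of the I3C papain counts lay in replicate T106, without which the fitted log2 fold change moved from 3.74 to 6.53. Its adjusted p in edgeR was 0.00384, and the call ended without T104, T107, T113, T114 or T115 and in a fit of the 8 compared libraries alone. Col11a2 was at 2.84 ± 0.599 CPM, 2.28 ± 0.450 CPM, 2.88 ± 0.209 CPM and 2.91 ± 0.429 CPM in the order I3C vehicle, I3C papain, AhR-poor vehicle and AhR-poor papain, with log2 fold changes between diets of 0.02 ± 0.19 (SE, adjusted p = 0.997) and 0.35 ± 0.19 (SE, adjusted p = 0.209). Col27a1 was at 2.56 ± 0.835 CPM, 2.96 ± 1.26 CPM, 4.48 ± 1.48 CPM and 6.67 ± 2.77 CPM, with log2 fold changes between diets of 0.81 ± 0.35 (SE, adjusted p = 0.326) and 1.16 ± 0.34 (SE, adjusted p = 0.0236), and it was called with papain by DESeq2 and without T106 or T112. Col2a1, the cartilage chain, stayed under 0.4 CPM in every library, and Col24a1 had 16 counts over all libraries.

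The type 4 chains divided by gene pair. Col4a1 and Col4a2 lie head to head on chromosome 8 and encode the network found in nearly all basement membranes, including those of vessels. Col4a1 was at 8.50, 6.27, 5.90 and 5.61 CPM with vehicle and at 15.2, 6.73, 9.19 and 7.11 CPM with papain on the I3C diet, and at 29.8, 20.01, 15.6 and 16 CPM with vehicle and at 49.1, 55.1, 47.5 and 32.1 CPM with papain on the AhR-poor diet. Both diet comparisons were without overlap, at 1.63 ± 0.28 (SE, adjusted p = 0.00346) with vehicle and 2.26 ± 0.28 (SE, adjusted p = 4.65e-05) with papain. Col4a2 went from 6.68 ± 1.19 CPM to 16 ± 5.13 CPM with vehicle (log2 fold change 1.25 ± 0.23 SE, adjusted p = 0.00370) and from 5.53 ± 1.45 CPM to 29.6 ± 5.86 CPM with papain (log2 fold change 2.42 ± 0.23 SE, adjusted p = 2.63e-06). The vehicle calls of both ended without T109, T110 or T111, that of Col4a1 also without T100 and that of Col4a2 without T108. Papain raised Col4a1 on the AhR-poor diet by 1.18 ± 0.27 (SE, adjusted p = 0.00315), a call lost without T101, T102, T103 or T105. On the I3C diet Col4a1 differed by 0.54 ± 0.28 (SE, adjusted p = 0.155). The ratio of Col4a1 to Col4a2 per kb was 0.959 and 1.24 with vehicle, and 1.68 and 1.51 with papain, on the I3C and AhR-poor diets.

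Col4a5 and Col4a6, the head-to-head pair on the X chromosome whose chains form the epidermal network, did not follow diet and fell after papain. Col4a5 was at 97.9, 100.0, 93.0 and 41.3 CPM with vehicle and at 38.3, 29.2, 40.8 and 41.8 CPM with papain on the I3C diet, and at 69.2, 98.4, 67.8 and 95.4 CPM with vehicle and at 26, 38.8, 30.2 and 33.9 CPM with papain on the AhR-poor diet. Vehicle replicate T111 of the I3C diet was as low as the papain libraries, and the diets overlapped with either injection, with log2 fold changes of -0.01 ± 0.24 (SE, adjusted p = 0.998) and -0.22 ± 0.24 (SE, adjusted p = 0.591). Col4a6 was at 111.8, 93.7, 93.7 and 53.3 CPM with vehicle and at 31.4, 29.5, 34.1 and 25.8 CPM with papain on the I3C diet, and at 68.4, 87.0, 72.0 and 74.4 CPM with vehicle and at 23.9, 32.3, 19.1 and 28.2 CPM with papain on the AhR-poor diet. Col4a6 was high with vehicle and low with papain in every library. Its diet differences were -0.22 ± 0.19 (SE, adjusted p = 0.725) and -0.22 ± 0.19 (SE, adjusted p = 0.489). After papain Col4a5 fell by 1.36 on the AhR-poor diet and by 1.14 on the I3C diet on the log2 scale (adjusted p = 0.000570 and 0.00175), and Col4a6 fell by 1.54 and 1.54 (adjusted p = 2.23e-05 and 1.43e-05). Groups with and without papain did not overlap except for Col4a5 on the I3C diet, for the library named, and in a fit of those 8 libraries alone that call was lost. Per kb the ratio of Col4a5 to Col4a6 was 0.958, 1.26, 1.11 and 1.27 in the I3C vehicle, I3C papain, AhR-poor vehicle and AhR-poor papain groups. Col4a3 and Col4a4, chains of kidney and lung membranes, had means under 1 CPM in every group. Neither was called in edgeR, where Col4a3 gave -2.94 ± 0.86 (SE, adjusted p = 0.0109) after papain on the I3C diet, but DESeq2 called Col4a3 lower there, as did edgeR with library sizes alone, without T106 or without T111.

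**Figure D5:**
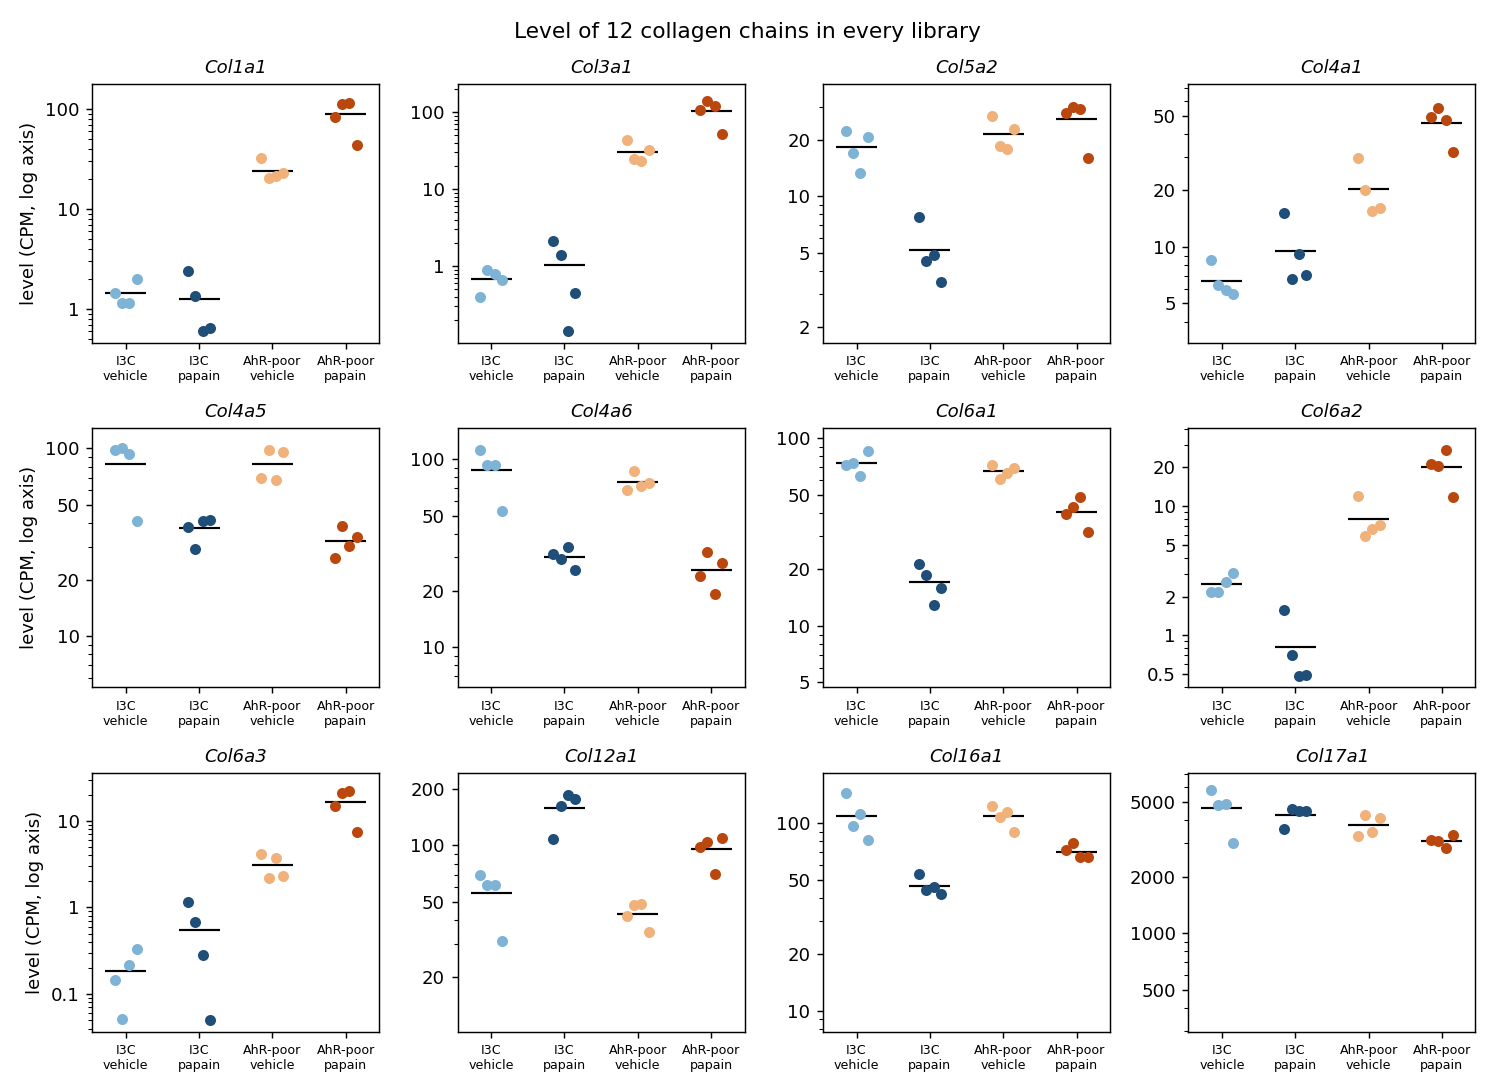
Points give the level of 12 chains in each library (y axis, CPM, log axis with its own scale in each panel) and bars the mean of the 4 libraries of a group. Col1a1, Col3a1 and Col6a3 separate the diets with either injection, Col4a5 and Col4a6 separate papain from vehicle on both diets but for 1 library, and Col5a2 and Col6a1 are lowest in the I3C papain group.

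In type 6 the 3 chains of the classic trimer had different patterns. Col6a1 was the most abundant type 6 chain per kb. Col6a1 was at 72.3, 73.4, 63.0 and 85.8 CPM with vehicle and at 21.3, 18.6, 13 and 15.9 CPM with papain on the I3C diet, and at 72.2, 60.7, 65.5 and 69.2 CPM with vehicle and at 39.3, 42.9, 48.4 and 31.7 CPM with papain on the AhR-poor diet. The vehicle groups overlapped (log2 fold change -0.14 ± 0.14 SE, adjusted p = 0.778) and the papain groups did not (log2 fold change 1.24 ± 0.14 SE, adjusted p = 1.16e-05). Papain lowered Col6a1 on the I3C diet, with a log2 fold change of -2.10 ± 0.15 (SE, adjusted p = 1.18e-08). On the AhR-poor diet the value was -0.72 ± 0.14 (SE, adjusted p = 0.000600), under the minimum fold change although the groups did not overlap. Col6a2 was at 2.18, 2.17, 2.61 and 3.06 CPM with vehicle and at 1.58, 0.706, 0.485 and 0.497 CPM with papain on the I3C diet, and at 12, 5.90, 6.63 and 7.11 CPM with vehicle and at 21.2, 20.6, 27.4 and 11.9 CPM with papain on the AhR-poor diet. The I3C papain libraries were lowest and the AhR-poor papain libraries nearly all highest. Its diet differences were 1.66 ± 0.33 (SE, adjusted p = 0.00832) with vehicle and 4.6 ± 0.38 (SE, adjusted p = 9.02e-07) with papain. The vehicle call ended when any vehicle library or T104, T105 or T113 was left out, and with RLE size factors, with library sizes alone and with all genes of at least 1 count, at log2 fold changes of 1.39 to 1.77. Col6a2 fell after papain on the I3C diet (log2 fold change -1.59 ± 0.38 SE, adjusted p = 0.00339) and rose on the AhR-poor diet (log2 fold change 1.35 ± 0.31 SE, adjusted p = 0.00294). The fall was lost without T111, T113, T114 or T115 and the rise without T101, T102, T103 or T107.

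Col6a3 encodes the longest chain of this trimer. Col6a3 was at 0.144, 0.0510, 0.218 and 0.330 CPM with vehicle and at 1.17, 0.673, 0.285 and 0.0497 CPM with papain on the I3C diet, and at 4.14, 2.17, 3.76 and 2.33 CPM with vehicle and at 14.9, 20.8, 22.2 and 7.53 CPM with papain on the AhR-poor diet. Levels on the I3C diet were near the floor and those of the diets did not overlap, with 4.07 ± 0.67 (SE, adjusted p = 0.00258) for vehicle and 4.89 ± 0.57 (SE, adjusted p = 3.40e-05) for papain, the latter 5.67 without T106. The vehicle call ended without T108, T109 or T110. Papain raised Col6a3 by 2.40 ± 0.48 (SE, adjusted p = 0.00139) on the AhR-poor diet, and on the I3C diet the value was 1.57 ± 0.77 (SE, adjusted p = 0.136). Type 6 microfibrils are known to hold these chains in equal number, and their RNA levels differed widely. The ratio of Col6a1 to Col6a2 per kb was 28.3 in the I3C vehicle group, 20.3 with papain, 8.14 in the AhR-poor vehicle group and 1.93 with papain. The ratio of Col6a1 to Col6a3 was 978, 77.9, 53.2 and 6.11 in the same order. With the I3C diet this rests on few Col6a3 reads, and single libraries ran from 640.4 to 3547 with vehicle and from 44.9 to 790.0 with papain.

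Among the other type 6 chains, Col6a4 rose after papain on both diets. It had 0 counts in all 4 I3C vehicle libraries and 4 counts in the 4 AhR-poor vehicle libraries, against 0.512, 0.257, 0.799 and 0.696 CPM and 0.419, 0.531, 0.346 and 0.381 CPM with papain on the I3C and AhR-poor diets. On the I3C diet this was at least 6.77-fold higher, computed against 3 counts per library (adjusted p = 9.31e-06 in edgeR). On the AhR-poor diet the ratio was 16.6, with a 95% exact interval of 6.21 to 62.8 (adjusted p = 0.000205). Of those 4 vehicle counts 3 lay in T102, without which the fitted log2 fold change moved from 3.86 to 5.12. The interaction was -3.55 ± 1.49 (SE, adjusted p = 0.321). Some of its exonic bases lie opposite unnamed transcripts. Col6a5 and Col6a6 had 15 and 18 counts over all libraries.

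The fibril-associated chains were led by Col16a1 and Col12a1. Col16a1 encodes a chain found near basement membranes. Col16a1 was at 145, 97.0, 112.1 and 81.5 CPM with vehicle and at 53.7, 43.8, 45.8 and 41.9 CPM with papain on the I3C diet, and at 123, 107.9, 114.1 and 89.6 CPM with vehicle and at 71.9, 78.3, 65.9 and 65.8 CPM with papain on the AhR-poor diet. Levels were lowest in the I3C papain group, and with vehicle the diets overlapped (log2 fold change -0.01 ± 0.14 SE, adjusted p = 0.997). With papain they did not, yet the difference of 0.61 ± 0.14 (SE, adjusted p = 0.00603) was under the minimum fold change. Papain lowered Col16a1 on the I3C diet (log2 fold change -1.23 ± 0.14 SE, adjusted p = 3.18e-06), and on the AhR-poor diet the value was -0.62 ± 0.14 (SE, adjusted p = 0.00246), also under it. Its interaction was 0.61 ± 0.20 (SE, adjusted p = 0.211). Col12a1 was at 69.4, 61.4, 61.2 and 30.8 CPM with vehicle and at 108.7, 163, 186 and 177 CPM with papain on the I3C diet, and at 42.1, 48.0, 48.7 and 34.5 CPM with vehicle and at 98.2, 103.8, 70.6 and 109.7 CPM with papain on the AhR-poor diet. Col12a1 encodes a chain that bridges fibres under load, and all papain libraries lay above all vehicle libraries of their diet. It rose after papain on both diets, by 1.51 ± 0.24 (SE, adjusted p = 0.000140) on the I3C diet and by 1.14 ± 0.23 (SE, adjusted p = 0.00158) on the AhR-poor diet. Its diet differences were -0.36 ± 0.23 (SE, adjusted p = 0.601) and -0.73 ± 0.23 (SE, adjusted p = 0.0373), not called.

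Col20a1 was at 5.54, 4.87, 6.47 and 4.95 CPM with vehicle and at 3.48, 2.76, 2.63 and 3.80 CPM with papain on the I3C diet, and at 5.97, 4.77, 5.14 and 4.99 CPM with vehicle and at 3.59, 3.87, 4.63 and 4.05 CPM with papain on the AhR-poor diet. Col20a1 was lower in all papain libraries than in all vehicle libraries of their diet, yet it was called in no comparison, its largest log2 fold change being -0.78 ± 0.15 (SE, adjusted p = 0.000513) after papain on the I3C diet. Col14a1, a fibril-bound chain of dermis, was higher on the AhR-poor diet. It was at 0.345, 0.280, 0.354 and 0.720 CPM and 4.6, 2.22, 3.29 and 2.55 CPM with vehicle on the I3C and AhR-poor diets (log2 fold change 2.90 ± 0.46 SE, adjusted p = 0.00132), and at 0.487, 0.0641, 0.0571 and 0.0497 CPM and 8.67, 6.43, 6.75 and 3.94 CPM with papain (log2 fold change 5.19 ± 0.52 SE, adjusted p = 3.44e-06). The latter was 6.75 without T106, and the vehicle call ended without T108 or T110. Col19a1 rose after papain on the I3C diet from 0.0287, 0.0510, 0.190 and 0.0900 CPM to 0.414, 0.385, 0.400 and 0.348 CPM (log2 fold change 2.06 ± 0.49 SE, adjusted p = 0.00248), at 2.71 without T110 and not called without T108 or T109. On the AhR-poor diet its value was 1.32 ± 0.47 (SE, adjusted p = 0.0362). Col22a1 had 3 counts in the I3C vehicle and 51 in the AhR-poor vehicle group, a ratio of 16.1 with a 95% exact interval of 5.21 to 80.6 and adjusted p = 0.0487 in edgeR, and DESeq2 called it. Col9a1, Col9a2 and Col9a3, cartilage chains, stayed under 1 CPM in every library and were called in no comparison by edgeR or DESeq2.

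No transmembrane chain was called in any comparison by the main edgeR fit or DESeq2. At an unadjusted p below 0.05, 1 of the 4 was higher on the AhR-poor diet with vehicle, 1 higher and 1 lower with papain, and 1 higher after papain on the AhR-poor diet. Col17a1 links the keratin cytoskeleton to the basement membrane. Col17a1 was at 5752, 4834, 4845 and 3005 CPM with vehicle and at 3577, 4557, 4487 and 4443 CPM with papain on the I3C diet, and at 3285, 4235, 3444 and 4086 CPM with vehicle and at 3128, 3110.2, 2835 and 3326 CPM with papain on the AhR-poor diet. The I3C vehicle libraries spread most, with T111 the lowest, and with vehicle the diets overlapped (log2 fold change -0.29 ± 0.15 SE, adjusted p = 0.439). With papain the AhR-poor libraries were all below the I3C libraries (log2 fold change -0.46 ± 0.15 SE, adjusted p = 0.0327), a difference that met neither threshold. The log2 fold change after papain was -0.11 ± 0.15 (SE, adjusted p = 0.608) on the I3C diet and -0.28 ± 0.15 (SE, adjusted p = 0.160) on the AhR-poor diet. Col23a1 was at 40.3, 32.0, 33.2 and 18.6 CPM with vehicle and at 39.5, 32.7, 43.6 and 37.2 CPM with papain on the I3C diet, and at 28.8, 24.6, 29.6 and 25.9 CPM with vehicle and at 47.1, 44.3, 31.9 and 44.4 CPM with papain on the AhR-poor diet. Only the AhR-poor diet separated papain from vehicle. Col23a1 differed by 0.63 ± 0.18 (SE, adjusted p = 0.0128) after papain on the AhR-poor diet, without overlap, and by 0.30 ± 0.18 (SE, adjusted p = 0.212) on the I3C diet.

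Col13a1 was near the floor. Col13a1 was at 0, 0, 0 and 0.0300 CPM with vehicle and at 0.0244, 0, 0.0285 and 0 CPM with papain on the I3C diet, and at 0.0817, 0.159, 0.0495 and 0.0536 CPM with vehicle and at 0.123, 0.247, 0.130 and 0.0272 CPM with papain on the AhR-poor diet. Reads were found in every AhR-poor library and in 3 of the 8 I3C libraries. It had 2 counts in the I3C papain and 22 in the AhR-poor papain group, a ratio of 10.6 with a 95% exact interval of 2.60 to 92.9 (adjusted p = 0.0183 in edgeR). There edgeR called it higher on the AhR-poor diet without T112, and at an adjusted p below 0.05. With vehicle the counts were 1 and 13 (adjusted p = 0.143). Col25a1 had 19 counts over all libraries. As a share of the collagen level, the class held 81.1% ± 2.54, 84.8% ± 0.739, 77.3% ± 2.72 and 73.3% ± 3.26 in the I3C vehicle, I3C papain, AhR-poor vehicle and AhR-poor papain groups. With papain the shares of the 2 diets did not overlap, a share of a total to which the fibrillar sum also contributed.

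Of the remaining chains, Col7a1 and Col18a1 followed Col17a1 in level per kb. Col7a1 encodes the anchoring fibril. Col7a1 was at 848, 676, 721 and 638 CPM with vehicle and at 349, 387, 361 and 389.8 CPM with papain on the I3C diet, and at 627, 633, 675 and 685 CPM with vehicle and at 338, 383, 309.7 and 373 CPM with papain on the AhR-poor diet. All papain libraries were below all vehicle libraries. The differences of -0.96 ± 0.09 (SE, adjusted p = 1.26e-07) on the I3C diet and -0.90 ± 0.09 (SE, adjusted p = 5.19e-07) on the AhR-poor diet had small adjusted p but stayed under the minimum fold change, which Col7a1 passed only on the I3C diet and only without T111. The diets differed by -0.14 ± 0.09 (SE, adjusted p = 0.585) and -0.08 ± 0.09 (SE, adjusted p = 0.575). Col18a1 was at 206, 161, 166 and 145 CPM with vehicle and at 229.9, 369, 299 and 293 CPM with papain on the I3C diet, and at 172, 152, 178 and 161 CPM with vehicle and at 310.2, 218, 231 and 246 CPM with papain on the AhR-poor diet. Col18a1, the source of endostatin, was higher in all papain libraries, at 0.81 ± 0.14 (SE, adjusted p = 0.000126) and 0.60 ± 0.14 (SE, adjusted p = 0.00220) on the I3C and AhR-poor diets, also under the minimum fold change.

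Col8a1 was at 6.23, 4.31, 5.17 and 3.69 CPM with vehicle and at 4.97, 4.07, 6.59 and 4.50 CPM with papain on the I3C diet, and at 5.83, 4.16, 4.06 and 4.45 CPM with vehicle and at 5.61, 5.88, 5.45 and 6.36 CPM with papain on the AhR-poor diet. Col8a1 was called in no comparison, and its groups overlapped in all 4 pairwise comparisons. Col8a2, which encodes the partner chain in the type VIII network, fell after papain from 2.12, 3.03, 2.72 and 2.49 CPM to 1.78, 0.417, 0.913 and 0.572 CPM on the I3C diet (log2 fold change -1.47 ± 0.34 SE, adjusted p = 0.00204) and from 5.15, 3.28, 2.20 and 2.66 CPM to 1.13, 1.37, 1.13 and 1.33 CPM on the AhR-poor diet (log2 fold change -1.41 ± 0.33 SE, adjusted p = 0.00267), a call lost without T100. Col15a1, a chain of vessel and muscle basement membranes, was higher on the AhR-poor diet, at 0.780 ± 0.397 CPM against 0.153 ± 0.0372 CPM with vehicle (log2 fold change 2.32 ± 0.43 SE, adjusted p = 0.00315) and 2.73 ± 0.779 CPM against 0.344 ± 0.147 CPM with papain (log2 fold change 3.01 ± 0.37 SE, adjusted p = 1.25e-05). The vehicle call was lost without T100, T108, T109, T110 or T111. Papain raised it on the AhR-poor diet by 1.82 ± 0.33 (SE, adjusted p = 0.000309). Col26a1 and Col28a1 were under 1 CPM in every library and called in no comparison by edgeR or DESeq2.

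Genes that build and cut collagen were counted from lists of enzymes and receptors. Over all genes, 1.59% were called higher on the AhR-poor diet with vehicle and 7.15% with papain. After papain 6.04% rose and 2.42% fell on the AhR-poor diet, and 3.69% rose and 5.29% fell on the I3C diet. Lysyl oxidases, which cross-link collagen and elastin, were higher on the AhR-poor diet. Of 6 cross-linking genes, 4 exceeded their I3C levels on the AhR-poor diet with vehicle and 5 with papain, with medians of 3.03 and 5.14 on the log2 scale. Loxl1 was at 0.0954 ± 0.0661 CPM and 1.95 ± 0.579 CPM with vehicle (log2 fold change 4.28 ± 0.50 SE, adjusted p = 8.92e-05). Lox was at 0.0221 ± 0.0303 CPM and 11.1 ± 6.69 CPM with papain, the I3C libraries having 2 counts or fewer. Papain raised 4 of the 6 on the AhR-poor diet and 0 on the I3C diet in edgeR, where 1 of 6 were higher and 0 lower at an unadjusted p below 0.05 and DESeq2 called 1 (Loxl4). Of 7 genes of procollagen processing, Adamts2, which removes the amino-terminal propeptide, and the enhancers Pcolce and Pcolce2 exceeded their I3C levels on the AhR-poor diet with either injection. Adamts2 gave log2 fold changes of 2.72 ± 0.43 (SE, adjusted p = 0.00108) with vehicle and 5.33 ± 0.46 (SE, adjusted p = 4.89e-07) with papain. Adamts14, of the same family as Adamts2, fell after papain on both diets, from 92.8 ± 22.6 CPM to 11.9 ± 2.44 CPM on the I3C diet (log2 fold change -2.96 ± 0.21 SE, adjusted p = 4.86e-08).

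Enzymes that modify every collagen chain in the endoplasmic reticulum included P4ha3 and Plod2, which rose after papain on both diets. Of 15 hydroxylases and glycosyltransferases, none was called between diets in edgeR or DESeq2, and the medians were 0.06 with vehicle and 0.02 with papain. With vehicle 0 of 15 were higher and 0 lower at an unadjusted p below 0.05 and DESeq2 called 0, and with papain 5 of 15 were higher and 2 lower at an unadjusted p below 0.05 and DESeq2 called 0. P4ha3, a subunit of prolyl hydroxylase, rose after papain by 5.49 ± 0.42 (SE, adjusted p = 2.64e-08) on the I3C diet and 4.44 ± 0.40 (SE, adjusted p = 2.72e-07) on the AhR-poor diet, and Plod2, a lysyl hydroxylase, by 1.09 ± 0.24 (SE, adjusted p = 0.00125) and 1.74 ± 0.23 (SE, adjusted p = 1.34e-05). Of 7 folding and export genes, Fkbp10 (log2 fold change 1.22 ± 0.19 SE, adjusted p = 0.000144) and Fkbp14 (log2 fold change 1.07 ± 0.26 SE, adjusted p = 0.00561) exceeded their I3C levels on the AhR-poor diet with papain. None of the 7 was called in another comparison by edgeR or DESeq2, where 1 to 3 were higher and 0 to 4 lower at an unadjusted p below 0.05.

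Among 9 collagen receptors, Itga11 and Lair1 exceeded their I3C levels on the AhR-poor diet with either injection and Itga1 with papain. Papain raised Ddr2, a receptor kinase for fibrillar collagen, on both diets, from 19.3 ± 7.26 CPM to 143 ± 30.2 CPM on the I3C diet (log2 fold change 2.89 ± 0.28 SE, adjusted p = 1.55e-06) and to 119.9 ± 21.5 CPM on the AhR-poor diet (log2 fold change 2.53 ± 0.27 SE, adjusted p = 8.13e-06). It lowered Mrc2, which takes up collagen for degradation, with log2 fold changes of -1.70 ± 0.09 (SE, adjusted p = 2.27e-10) and -1.48 ± 0.09 (SE, adjusted p = 2.57e-09). Of 6 collagen-cleaving proteases, 4 rose after papain on the AhR-poor diet and 2 on the I3C diet in edgeR, where Mmp2, also among the fibroblast markers, fell. DESeq2 called 4 higher on the AhR-poor diet and 3 on the I3C diet, with Mmp8 added there. Mmp13, a collagenase, rose by 3.45 ± 0.71 (SE, adjusted p = 0.00179) and 3.96 ± 0.76 (SE, adjusted p = 0.00124) on the I3C and AhR-poor diets. Neutrophil markers (6 tested) summed to 0.517 to 0.952 CPM and 19.9 to 29.5 CPM on the I3C diet without and with papain, and to 1.77 to 2.47 CPM and 37.3 to 169 CPM on the AhR-poor diet, with Ly6g, Mpo and Camp at 0 counts in the I3C vehicle group, Ly6g, Ngp and Camp in the I3C papain group, Ly6g in the AhR-poor vehicle group and Mpo in the AhR-poor papain group, and their part in the protease values was not tested. Of 8 partners of collagens 7 and 17 in the hemidesmosome, none was called between diets in edgeR or DESeq2. With vehicle 0 of 8 were higher and 3 lower at an unadjusted p below 0.05 and DESeq2 called 0, and with papain 0 of 8 were higher and 6 lower at an unadjusted p below 0.05 and DESeq2 called 0. Dst, which encodes a plakin that ties keratin to the hemidesmosome, fell after papain on both diets, with log2 fold changes of -1.36 ± 0.12 (SE, adjusted p = 6.85e-08) and -1.28 ± 0.12 (SE, adjusted p = 2.72e-07).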

How the data were processed

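RNA of footpad epidermal cells was measured by sequencing in 16 libraries, 4 in each of 4 groups, which were taken from the sample labels. The deposited values are raw counts per Ensembl gene, which the authors made by quality control with FastQC and alignment to mm10 with STAR, after TruSeq stranded mRNA libraries were run on a NovaSeq 6000. The counting tool, its strand setting, its annotation release and the sequencing unit of each library are not given in the sources used here. Nothing was normalized in the deposited table, and no column was left without a sample.

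Gene symbols came from GENCODE M21, which matched 50376 of 50600 identifiers and left 224 unmatched. Genes with at least 10 counts over all libraries, 22155 in number, were fitted with 4 group means in the quasi-likelihood model of edgeR 4.0.16 (R 4.3.3, robust, TMM factors of 0.937 to 1.07), and p-values were adjusted by Benjamini-Hochberg over all genes of a comparison. A call needed adjusted p-values under 0.01 and log2 fold changes beyond 1, the thresholds of the study's methods. Single values were compared by the exact two-sided permutation test of log2(CPM + 0.1) in scipy 1.17.1. Where a group had 0 counts throughout, the fold was computed against 3 counts in each library, and with 1 to 3 counts the ratio is given with an exact 95% interval. Such intervals and floors cover counting error only.

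Levels per kb divide the CPM by the longest coding transcript, so a gene whose cells use a shorter form is understated. The model was tested on simulated counts. DESeq2 1.42.0, other size factors, other filters, other thresholds, fits of the compared libraries alone and fits without each library were the alternatives. Described in full were the 3 chains of each class with the highest mean level per kb and any chain with a called interaction, and the others are given by level and fold change. From each gene list up to 2 called genes with the largest fold change were named. A result for 1 listed gene is not reported here. The chains, the classes and the gene lists were chosen with earlier results of these data known. The unit is the single animal per the study's methods, and the libraries of a group are taken as separate mice. No pair of libraries held the same counts.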

Additional observations from a re-analysis of the deposited data

Results flagged for a closer look

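In 2 of the full set of 72 groups of 4 libraries examined for a library far from the rest, 1 library stood apart by more than Dixon's critical value for 4 libraries for a chain with reads throughout. Chance alone marks about 1 group in 20. For Col4a5 in the I3C vehicle group the gap of replicate T111 was 0.881 of the group's range, T111 being the lowest. For Col17a1 in the I3C papain group the gap of replicate T106, the lowest, was 0.884 of the range. For Col13a1 in the I3C vehicle group the ratio was 1.0, since T111 held the only count of that group.

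The papain response differed between diets at an adjusted p below 0.05 in edgeR, and above 0.01, for 3 chains. The difference of log2 fold changes was 2.07 for Col5a2, 1.37 for Col6a1 and 2.94 for Col6a2. In each of them the level after papain was lowest in all 4 libraries of the I3C diet, as the values by library show.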

How the results depend on the processing

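No called chain changed direction under any of the 8 alternative settings or without any library. With each library left out in turn, the count of called chains ran from 3 to 11 between diets with vehicle, from 13 to 16 with papain, from 8 to 14 after papain on the AhR-poor diet, from 9 to 13 on the I3C diet and from 0 to 4 for the interaction. The interaction, with 0 chains called at first, gave 1 with library sizes alone, 4 with DESeq2 and 3 at an adjusted p below 0.05. Of all counts under the alternatives 12 moved by over 1.5 times, and of the fold changes of called chains 76 lost their call and 1075 kept it. In CPM not divided by length, the transmembrane share of the collagen level was 76.9% in the I3C vehicle group, 81.1% in the I3C papain group and 73.1% in the AhR-poor vehicle group. Per kb of all annotated exons, an alternative chosen after seeing the data, it was 86.1% in the I3C papain group and 76.6% in the AhR-poor papain group. The cause of these shifts was not tested beyond the change in length itself. No paired analysis was possible because the replicate codes of the groups share no number. Depth limited the 17 chains with a mean under 1 CPM, of which 12 failed edgeR's own expression filter.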
